A study of Mus musculus with 16 samples.

Results

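Chemokines and their receptors were followed across the cell types of the mouse thoracic aorta. Members were all rows of the deposited feature tables whose gene symbol begins with Ccl, Cxcl, Ccr, Cxcr or Ackr followed by a digit. This gave 63 of 31055 rows, with 30 Ccl rows, 12 Cxcl rows, 11 Ccr rows, 6 Cxcr rows and 4 Ackr rows. Of the 63 rows, 38 held at least 200 unique molecular identifiers (UMIs, the count of distinct captured transcripts) in the cells retained, 18 held fewer and 7 held none.

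The study profiled single cells from the thoracic aorta, taken from the root to the left subclavian branch, of male mice on the 129S6/SvEv background. All mice carried Myh11-CreER, a tamoxifen-activated Cre driven by a smooth muscle myosin promoter and integrated on the Y chromosome, and all received tamoxifen from 6 weeks of age, the controls included. Smad3+/+ mice have intact Smad3, whereas Smad3SmKO mice carry loxP-flanked Smad3 alleles, so that the deletion is directed to vascular smooth muscle cells (VSMCs) and leaves Smad3 in the other cells of the wall. There was 1 library per mouse and 16 in all. The genotype p-values below measure the spread between mice, and those for cell type measure how class differences vary between libraries. At 10 weeks post-deletion 2 Smad3+/+ and 2 Smad3SmKO libraries were made, all in batch 4 with a 60 min enzymatic digestion. At 18 weeks 3 Smad3+/+ and 4 Smad3SmKO libraries came from a 30 min digestion in batches 1, 2 and 3, and 2 Smad3+/+ and 3 Smad3SmKO libraries from a 60 min digestion in batches 5 and 6. The GFP tracer label differed in the same way at 18 weeks, being None at 30 min and Myh11-GFP at 60 min, so digestion time, batch and tracer label cannot be told apart. At 10 weeks the label was Myh11-GFP in both Smad3+/+ and None in both Smad3SmKO libraries. Tracer label and genotype therefore cannot be told apart at 10 weeks. Batch 5 held Smad3SmKO replicates 5 and 7 and no Smad3+/+ library. These libraries therefore do not inform the genotype difference where batch is a term of the fit.

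Chemokines are small secreted proteins that direct the movement of leukocytes, and they are classed as CC or CXC by the spacing of the first cysteines. They act on G protein-coupled receptors, the Ccr and Cxcr proteins, whereas the atypical receptors of the Ackr group bind and clear ligand without G protein signalling. In the artery wall, ligands such as Ccl2 draw monocytes through Ccr2, ligands such as Cxcl1 and Cxcl2 draw neutrophils through Cxcr2, and Cxcl12 retains Cxcr4-bearing cells. Many of the inflammatory ligands are induced through NF-kB, a transcription factor that responds to cytokines and tissue stress.

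Many members sit in clusters of neighbouring genes, and 14 of the 63 rows lie on chromosome 11, 12 on chromosome 9 and 10 on chromosome 5 (GRCm38, GENCODE annotation). Cxcl5 (chr5:90759360-90761624), Cxcl3 (chr5:90786103-90789600), Cxcl1 (chr5:90891241-90893115) and Cxcl2 (chr5:90903871-90905938), all on the plus strand, form the group of neutrophil-attracting CXC ligands. Ccl2 (chr11:82035571-82037453), Ccl7 (chr11:82045712-82047525), Ccl11 (chr11:82057823-82062955), Ccl12 (chr11:82101845-82103400) and Ccl8 (chr11:82115185-82116799), also on the plus strand, form the monocyte- and eosinophil-attracting CC group. RefSeq promoters (250 bases before to 50 bases after the start site, GRCm38.p6) were matched for 42 of the 58 distinct member symbols and searched for the kappa B-type motif GGAATTTCC and its other strand GGAAATTCC. The motif was in 104 of all 32851 promoters (0.317%) and in 5 of the 42 member promoters, those of Cxcl1, Cxcl2, Cxcl3, Cxcl10 and Ccr3. A match describes the letters in this window and says nothing of binding. The promoters of Cxcl1, Cxcl2 and Cxcl3, neighbouring genes with the motif that were higher after the longer digestion in fibroblasts (below), are printed 5′ to 3′ with the motif in capitals. Cxcl5, Ccl2 and Ccl7, also higher there, were not among the promoters with the motif. Whether each of them had a promoter in the search is not given here, and a link between motif and digestion was not tested. The motif ends 61, 87 and 63 bases before the start site in Cxcl1 (chr5:90890995-90891294, plus strand), Cxcl2 (chr5:90903649-90903948, plus strand) and Cxcl3 (chr5:90785851-90786150, plus strand), respectively.
Cxcl1: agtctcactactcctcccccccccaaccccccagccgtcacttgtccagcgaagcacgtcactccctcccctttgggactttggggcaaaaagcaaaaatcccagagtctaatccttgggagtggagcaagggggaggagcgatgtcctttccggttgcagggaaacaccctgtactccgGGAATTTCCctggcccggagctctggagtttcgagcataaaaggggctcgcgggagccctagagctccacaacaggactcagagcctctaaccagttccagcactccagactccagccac
Cxcl2: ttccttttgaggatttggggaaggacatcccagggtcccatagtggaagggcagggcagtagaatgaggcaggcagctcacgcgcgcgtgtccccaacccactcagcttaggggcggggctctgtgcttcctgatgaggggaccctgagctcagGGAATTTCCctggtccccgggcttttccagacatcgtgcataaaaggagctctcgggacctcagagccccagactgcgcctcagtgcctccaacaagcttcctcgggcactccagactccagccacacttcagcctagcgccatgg
Cxcl3: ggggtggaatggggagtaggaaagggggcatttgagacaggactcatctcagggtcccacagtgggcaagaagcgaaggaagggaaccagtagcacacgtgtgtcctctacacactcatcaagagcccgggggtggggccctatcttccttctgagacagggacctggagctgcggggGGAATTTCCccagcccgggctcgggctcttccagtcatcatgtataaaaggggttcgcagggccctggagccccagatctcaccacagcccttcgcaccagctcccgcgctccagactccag

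Of 66349 deposited cell barcodes, 50858 passed the filters on genes, UMIs and mitochondrial share, with 631 to 6497 cells and 12180168 to 48813151 UMIs per library. VSMCs (8950 cells) were cells with at least 5 Myh11 UMIs and more Myh11 than Dcn, fibroblasts (36066) had at least 5 Dcn UMIs and more Dcn than Myh11, and endothelium (3303) and leukocytes (3357) had at least 2 UMIs of Pecam1 plus Cdh5 and of Ptprc plus Tyrobp, respectively. A cell could enter more than 1 class. Of the endothelial cells 62.9% also passed another gate, against 3.37% of VSMCs, 5.86% of fibroblasts and 12.2% of leukocytes. The endothelium sums held a median of 12939 CPM (UMIs scaled to the same total in every sum) of 6 fibroblast markers and 1248 CPM of 6 endothelium markers, so values from cells of a single class are given beside most of theirs. The labels were checked against RNA with Smad3 and GFP. Smad3 in VSMCs was 5.40 and 4.69 CPM in Smad3+/+ and 8.08 and 5.19 CPM in the libraries labelled Smad3SmKO at 10 weeks (Log2FC 0.45 ± 0.37 SE), and differed by 0.05 ± 0.37 at 18 weeks. A 3′ tag reads the end of the transcript and checks the deletion only where that end is lost. The study checked the deletion in aortas by other assays, not analysed here. GFP transcripts disagreed with the tracer label in 4 of 16 libraries, the Smad3SmKO pair at 10 weeks (label None, 246 and 165 UMIs) and Smad3+/+ 18 weeks replicates 4 and 5 (label Myh11-GFP, 0 UMIs). No pair of libraries shared more than 11 cell barcodes (0.363% of the smaller library).

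Members made up 0.533% of all UMIs (2571020 UMIs), and 5 ligands, Cxcl2, Cxcl1, Ccl2, Ccl7 and Cxcl12, held 78.3% of these. Per UMI of the class, leukocytes carried the most chemokine RNA, whereas in total UMIs the more numerous fibroblasts held more Cxcl1 (580856 against 56802) and Ccl2 (203020 against 44384). The members' mean levels summed to 31397 CPM in leukocytes, 3997 CPM in fibroblasts, 3556 CPM in endothelium and 382 CPM in VSMCs. Of the 38 members with at least 200 UMIs, 26 were highest in leukocytes, 6 in fibroblasts, 5 in endothelium and 1 in VSMCs (plot of member levels by class). In an edgeR quasi-likelihood test of each class against the mean of the other 3, with the library as a block, 33 of the 46 members tested were higher in leukocytes, where 35.5% of all genes were called higher, and 8 were lower (36.0% of all genes). In VSMCs 42 of 46 were lower (41.3% of all genes) and 1 was higher (30.8%). In fibroblasts 15 were higher (36.8% of all genes) and 13 lower (25.3%), and in endothelium 12 were higher (23.6%) and 16 lower (19.1%). In endothelial cells of a single class 10 were higher and 18 lower of 43 tested, and 7574 of 16429 genes were called either way. The median member Log2FC was 5.53 in leukocytes, −0.58 in fibroblasts, −0.73 in endothelium and −3.78 in VSMCs, against medians over all genes of −0.06, 0.07, −0.00 and −0.13. A 3′ UMI count does not grow with gene length, so levels of different genes can be set side by side.

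**Figure D1:**
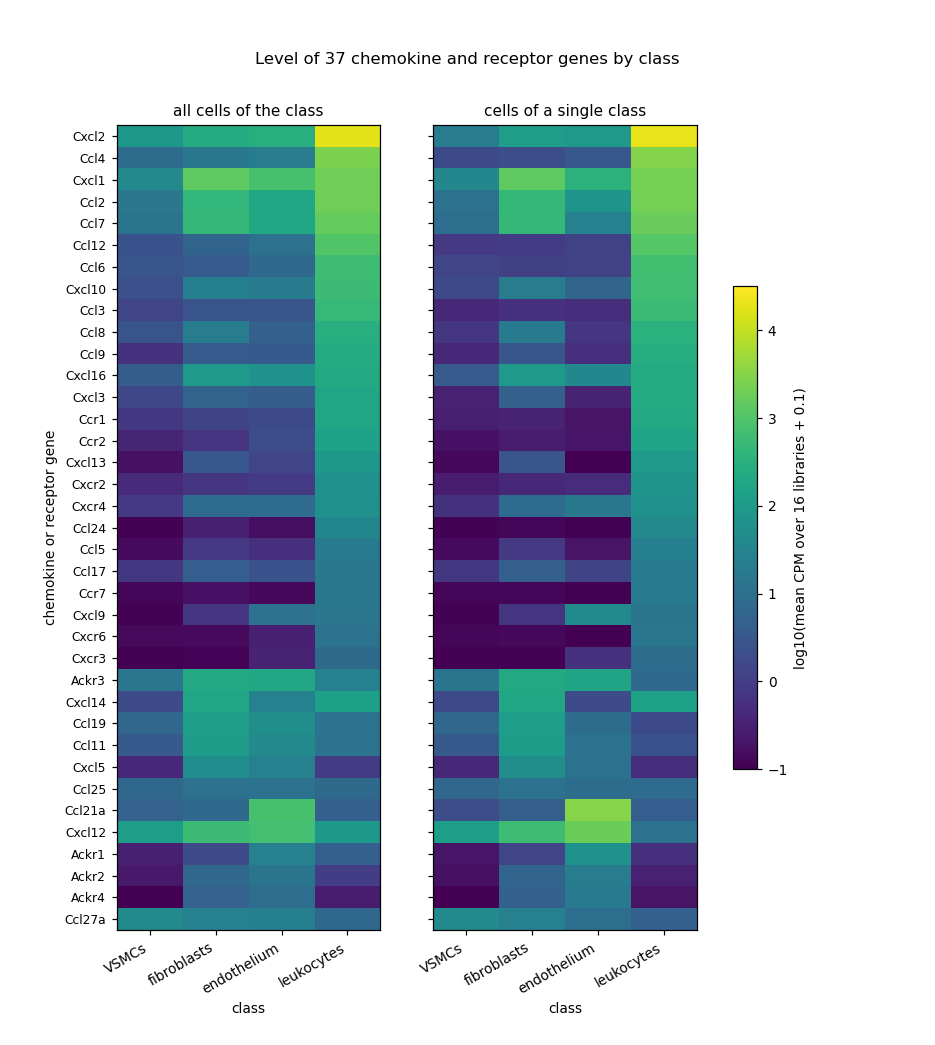
Heat map of log10(mean CPM over 16 libraries + 0.1) for 37 of the 38 members with at least 200 UMIs (rows) in VSMCs, fibroblasts, endothelium and leukocytes (columns), from all cells of a class on the left and from cells of a single class on the right. Most inflammatory ligands and receptors are highest in leukocytes, Ccl21a and Cxcl12 in endothelium, and Ccl27a in VSMCs.

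Among the neutrophil-attracting CXC ligands, Cxcl2 was the most abundant member in leukocytes, at 18487 ± 12936 CPM (SD, n = 16 libraries, range 2920–47385). It was 287 ± 322 CPM in endothelium (92.8 CPM in cells of a single class), 241 ± 361 CPM in fibroblasts and 86.3 ± 184 CPM in VSMCs, and the leukocyte level was above that of endothelium in 16 of 16 libraries. The leukocyte Log2FC against the other classes was 7.92 ± 0.29. Cxcl1 was spread more widely, at 2005 ± 1544 CPM in leukocytes, 1339 ± 1364 CPM in fibroblasts, 775 ± 833 CPM in endothelium (350 CPM in cells of a single class) and 39.6 ± 32.7 CPM in VSMCs. Leukocytes were above fibroblasts for Cxcl1 in 12 of 16 libraries, so these neighbours in the order were not separated in every mouse. Cxcl3 reached 184 ± 404 CPM in leukocytes, where it ran from 0.926 to 1311 CPM between libraries. Cxcl5 was highest in fibroblasts (50.3 ± 98.4 CPM, Log2FC 4.30 ± 0.22), and it was above the endothelium in 13 of 16 libraries.

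Most of the inflammatory CC ligands were leukocyte transcripts. Ccl4, a monocyte and T cell attractant, was 2600 ± 1789 CPM in leukocytes (Log2FC 8.61 ± 0.37), Ccl12 was 1012 ± 626 CPM (8.20 ± 0.32) and Ccl3, which acts on Ccr1, was 493 ± 304 CPM (8.16 ± 0.28). In each of the 16 libraries the leukocyte level of these 3 ligands was above that of endothelium, the class next in order. Ccl2, the main ligand of Ccr2, was 1982 ± 1089 CPM in leukocytes and 445 ± 466 CPM in fibroblasts. Ccl7, which acts on several monocyte receptors, was 1609 ± 1136 CPM in leukocytes and 462 ± 476 CPM in fibroblasts. Both were higher in fibroblasts than in the mean of the other classes, with Log2FC 1.18 ± 0.25 for Ccl2 and 1.45 ± 0.23 for Ccl7, and lower in VSMCs (−5.32 and −5.50). The fibroblast level was 22.4% of the leukocyte level for Ccl2, 28.7% for Ccl7 and 66.8% for Cxcl1. The same ratio was 0.530% for Ccl3, 0.602% for Ccl4, 0.582% for Ccl12 and 0.627% for Ccl6, ligands whose level was mainly in leukocytes. Ccl11, or eotaxin, was instead highest in fibroblasts (102 ± 83.5 CPM, Log2FC 3.10 ± 0.34).

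Of the 8 homeostatic ligands 6 were called higher in fibroblasts (36.8% of all genes) and 4 in endothelium (23.6%). In leukocytes 3 were called higher, near the share of all genes (35.5%). In VSMCs 1 was called higher (30.8% of all genes) and the other 7 were lower (41.3%). Cxcl12 was 725 ± 267 CPM in endothelium, 599 ± 248 CPM in fibroblasts, 120 ± 50.4 CPM in VSMCs and 85.9 ± 60.3 CPM in leukocytes. Endothelium was above fibroblasts in 11 of 16 libraries, and in cells of a single class it stood at 1870 ± 716 CPM. Cxcl12 was the most abundant member of VSMCs, although below its level in the other classes on average (Log2FC −1.39 ± 0.21). Ccl21a, a lymph-node homing ligand of Ccr7, was 793 ± 859 CPM in endothelium and 3118 ± 3649 CPM in endothelial cells of a single class, with libraries from 0 to 2465 CPM in the full sums. The lymphatic endothelium markers Prox1, Lyve1 and Mmrn1 summed to a median of 127 CPM (0–296) in these sums, and their part in the Ccl21a level was not tested. Ccl19, another ligand of Ccr7, was highest in fibroblasts and above endothelium in 16 of 16 libraries (115 ± 57.1 CPM). Cxcl14 was 182 ± 174 CPM in fibroblasts and 127 ± 79.6 CPM in leukocytes, and the order held in 8 of 16 libraries. Cxcl13, a B cell attractant, was highest in leukocytes at 83.7 ± 119 CPM. Ccl27a was the single member highest in VSMCs, at 40.9 ± 15.6 CPM against 24.8 ± 7.74 CPM in fibroblasts, and this order held in 16 of 16 libraries (Log2FC 1.33 ± 0.08). Ccl21a, Ccl19 and Ccl27a share sequence with copies and close relatives listed on other rows, which held 0 to 13 UMIs each. How reads shared by such copies were counted was not examined, so these levels are less certain.

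Signalling receptors were leukocyte transcripts. Ccr1 was 178 ± 111 CPM (Log2FC 7.82 ± 0.18), Ccr2 143 ± 120 CPM (7.60 ± 0.20) and Cxcr2 61.6 ± 67.8 CPM (6.77 ± 0.22), and each was above the next class in 16 of 16 libraries. Cxcr4, the receptor of Cxcl12, was 56.6 ± 27.2 CPM in leukocytes (Log2FC 4.16 ± 0.23). The atypical receptors had the opposite distribution. Ackr3, which also binds Cxcl12, was 209 ± 75.9 CPM in fibroblasts and 190 ± 70.6 CPM in endothelium (166 CPM in cells of a single class), a pair that did not separate (8 of 16 libraries), and 26.3 ± 20.5 CPM in leukocytes. Ackr1, the Duffy antigen receptor of venular endothelium, was 24.3 ± 24.96 CPM in endothelium (Log2FC 4.82 ± 0.41) and 64.3 CPM in its cells of a single class. Ackr2, a scavenger of inflammatory CC ligands, was 13.2 ± 9.27 CPM in endothelium (19.8 CPM in cells of a single class) and was called higher there (3.44 ± 0.24) and in fibroblasts (2.17 ± 0.23). Ackr4, a scavenger of Ccl19 and Ccl21, was 9.20 ± 14.3 CPM in endothelium (4.10 ± 0.31) and 18.7 CPM in its cells of a single class.

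Within leukocytes the ligands and receptors separated by cell gate (plot of leukocyte gates). Gates were set on other genes, with S100a8 and S100a9 for neutrophils (836 cells), the C1q genes for macrophages (1902), Cd3e, Cd3d and Trac for T cells (86) and Cd79a, Cd79b and Ms4a1 for B cells (17). Levels are medians over libraries with enough cells (15 for the macrophage and 12 for the neutrophil gate) and are described without a test. Smad3SmKO 18 weeks replicate 5 held 458 of the 836 cells of the neutrophil gate, so pooled levels lean on that library. Cxcl2 was 26500 CPM (5623–72711) in the neutrophil gate and 18435 CPM (2855–52082) in the macrophage gate, ranges that overlapped, against a pooled 126 CPM in the T cell gate. Cxcl3 was 38.2 CPM (0–2911) in the neutrophil gate and 6.20 CPM (0–112) in the macrophage gate, and Cxcl1 was 791 CPM (109–2720) and 1954 CPM (207–5681). The monocyte-attracting CC ligands were higher in the macrophage gate, with Ccl2 at 2661 CPM in the macrophage gate against 7.66 CPM in the neutrophil gate, Ccl7 at 1893 against 28.6 CPM, and Ccl12 at 1441 against 0 CPM. Ccl4 was 2731 CPM (434–7355) in the macrophage gate and 1354 CPM (247–5376) in the neutrophil gate. Among receptors, Cxcr2 was 677 CPM in the neutrophil gate and 0 CPM in the macrophage gate, and Ccr1 was 702 and 119 CPM. Ccr2 was 98.2 CPM in the macrophage gate and 0 CPM in the neutrophil gate, and a pooled 159 CPM in the T cell gate. Cxcr6 (382 CPM) and Cxcr3 (61.3 CPM) had their highest pooled levels in the T cell gate. The 516 leukocytes outside these gates had the highest pooled levels of Ccl17 (148 CPM) and Ccr7 (53.3 CPM), genes known from dendritic cells, although their medians over 11 libraries were 21.2 and 21.4 CPM.

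**Figure D2:**
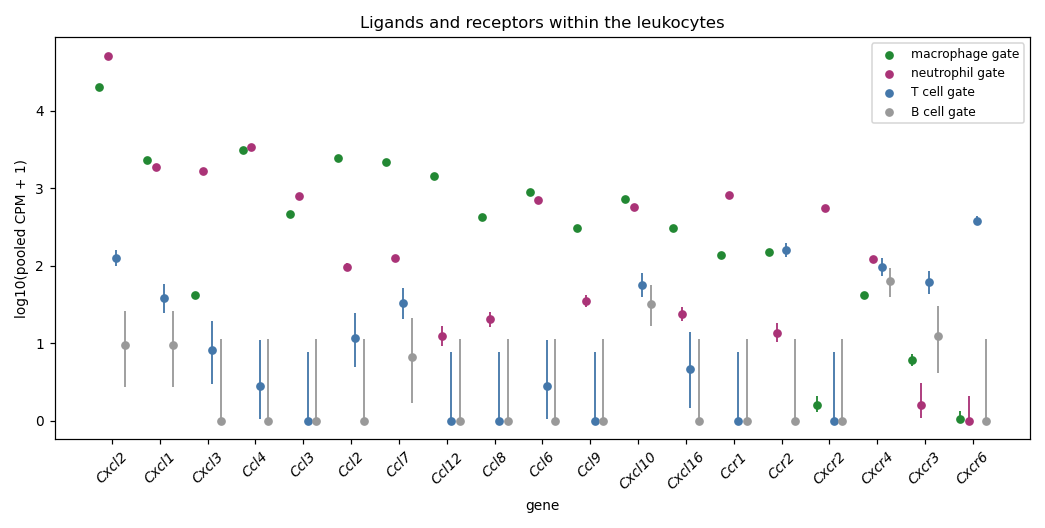
Pooled level, as log10(CPM + 1), of 19 members in the macrophage, neutrophil, T cell and B cell gates of the leukocytes, with 95% exact Poisson intervals that cover counting error only; 458 of the 836 cells of the neutrophil gate come from 1 library. Ccl2, Ccl7 and Ccl12 lie high in the macrophage gate, and Cxcl2, Cxcl3, Ccr1 and Cxcr2 in the neutrophil gate.

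Fibroblasts were also uneven. In cells with at least 2 UMIs of Has1 plus Spon2 (7459 of 36066 fibroblasts), the median over 16 libraries was 1597 CPM for Cxcl1 against 689 CPM in the remaining fibroblasts, and the gate was higher in 16 of 16 libraries. Ccl7 was 622 against 198 CPM and Cxcl14 230 against 58.1 CPM, also in 16 of 16 libraries. Ccl2 (439 against 202 CPM) and Ackr3 (329 against 166 CPM) were higher in 15 of 16. Ccl19 was lower in the gate in 15 of 16 libraries, at 62.8 against 122 CPM, and Ccl27a was lower in all 16, at 16.4 against 24.2 CPM. Cxcl12 was 350 against 587 CPM, higher in the gate in 4 of 16 libraries. In fibroblasts with at least 5 UMIs of Ifit1, Ifit3 and Isg15 (2936 cells), the interferon-induced ligand Cxcl10 was 76.7 CPM against 17.4 CPM in the rest and was higher in 15 of 15 libraries. These comparisons lie within libraries and were not tested.

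The clearest differences between libraries followed digestion time at 18 weeks, where 5 libraries digested for 60 min were compared with 7 digested for 30 min, with genotype as a covariate. Each batch had a single digestion time, so this fit had no batch term. Its p-values treat the mice as independent and do not measure the spread between batches. In fibroblasts 6 of 37 members tested were higher at 60 min and none was lower at an adjusted p under 0.05, and 1.04% of all genes were called higher. They were Cxcl1, Cxcl2, Cxcl3, Cxcl5, Ccl2 and Ccl7, from the gene clusters of chromosomes 5 and 11 described above. VSMCs had 4 members higher of 25 tested (1.67% of all genes), endothelium 3 of 30 (2.08%) and leukocytes 2 of 37 (4.45%). Cxcl1 and Cxcl2 were among those called in each class. All 60 min libraries lay above all 30 min libraries for 6 of 37 members in fibroblasts (0.415% of all genes) and 4 of 25 in VSMCs (0.674%). The same held for 2 of 30 members in endothelium (0.762%) and 2 of 37 in leukocytes (1.30%).

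In fibroblasts Cxcl1 was 4689 and 2393 CPM in the Smad3+/+ and 1703, 4029 and 1631 CPM in the Smad3SmKO libraries of 60 min, and 133, 346 and 507 CPM (lowest, median and highest) at 30 min. The groups did not overlap, with Log2FC 3.29 ± 0.34 (adjusted p = 0.00229). Ccl7 was 990 and 1219 CPM in Smad3+/+ and 1087, 1574 and 424 CPM in Smad3SmKO at 60 min, against 81.6, 106 and 257 CPM at 30 min. All 5 libraries of 60 min were again the higher, with Log2FC 3.19 ± 0.34 (adjusted p = 0.00229). Ccl2 was 1348, 1032, 997, 1426 and 292 CPM in the same order of libraries, against 65.8, 151 and 210 CPM. Its lowest 60 min value, from Smad3SmKO replicate 7, stood nearest to the 30 min group, and the Log2FC was 2.97 ± 0.39 (adjusted p = 0.00588).

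Cxcl2 in fibroblasts was 217 and 209 CPM in the Smad3+/+ and 754, 1368 and 524 CPM in the Smad3SmKO libraries of 60 min, and 18.9, 37.2 and 72.6 CPM at 30 min (Log2FC 3.74 ± 0.49, adjusted p = 0.00588). The Smad3SmKO libraries were the higher of the 60 min group, and all 5 libraries of 60 min exceeded the 30 min group. Of these Smad3SmKO libraries, replicates 5 and 7 came from batch 5, which held no Smad3+/+ library. In fibroblasts of no other class, Cxcl2 was still higher at 60 min, with a median of 198 CPM against 7.65 CPM (Log2FC 5.37 ± 0.41, adjusted p = 2.8e-04). Cxcl2 there was 0.850% of the leukocyte level at 60 min and 0.0937% at 30 min, whereas Ccl4, a ligand of leukocytes, was 0.109% and 0.0300%. The 5 neutrophil markers summed to a median of 102 CPM (7.36–307) in the fibroblast sums at 60 min and 13.99 CPM (1.54–70.3) at 30 min, while macrophage markers were 30.9 and 76.8 CPM. The part of leukocyte RNA in the fibroblast Cxcl2 values was not tested.

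Cxcl3 was 2.77 and 3.02 CPM in Smad3+/+ and 61.4, 6.48 and 11.8 CPM in Smad3SmKO fibroblasts at 60 min, and 0, 0 and 0.251 CPM at 30 min, or 1602 UMIs against 13 UMIs (Log2FC 7.53 ± 0.79, adjusted p = 0.00258). Cxcl5 was 40.0 and 30.0 CPM in Smad3+/+ and 365, 40.5 and 215 CPM in Smad3SmKO fibroblasts at 60 min, and 2.22, 5.19 and 20.9 CPM at 30 min (Log2FC 4.14 ± 0.75, adjusted p = 0.0254). For both ligands the 2 highest libraries, Smad3SmKO replicates 5 and 7, were those of batch 5. When fibroblast libraries were thinned to 2000 UMIs per cell, the median share of cells with a Cxcl1 UMI was 20.2% at 30 min and 56.6% at 60 min (35.6% and 74.1% unthinned). The share was 1.15% and 22.4% for Cxcl2 (4.39% and 34.7% unthinned) and 8.42% and 32.8% for Ccl7 (15.8% and 51.1% unthinned). Ccl4, a ligand mainly of leukocytes, had shares of 0.182% and 0.510% (0.715% and 1.47% unthinned). Cxcl12 had shares of 43.0% and 44.7%.

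**Figure D3:**
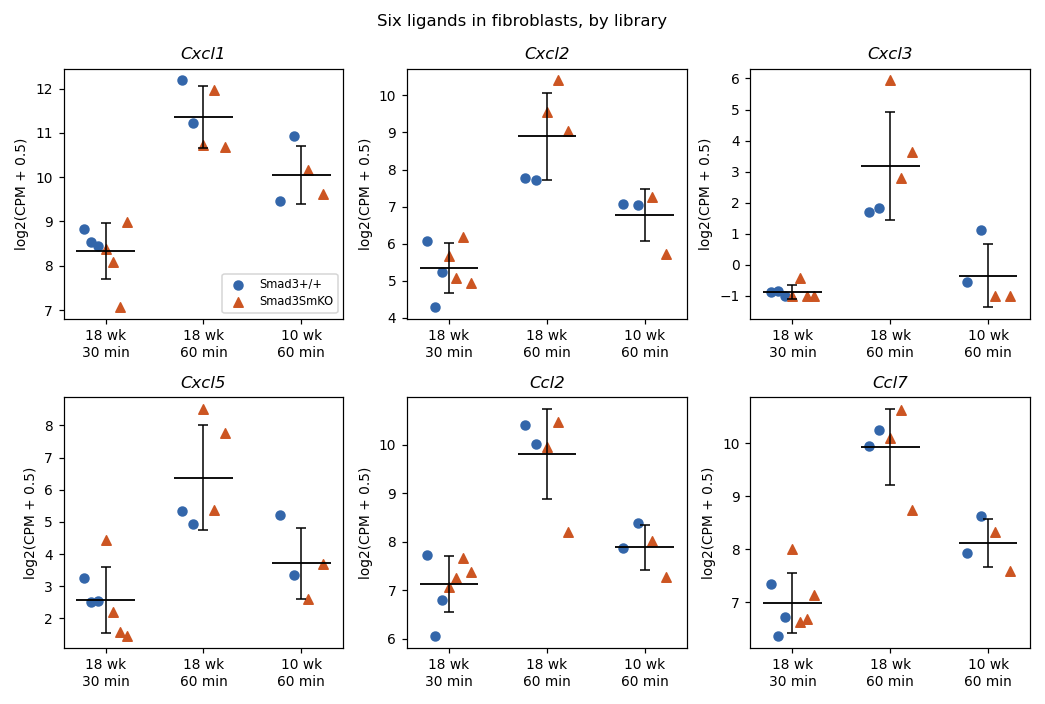
Level in fibroblasts, as log2(CPM + 0.5), of Cxcl1, Cxcl2, Cxcl3, Cxcl5, Ccl2 and Ccl7 in each library of 18 weeks and 30 min, 18 weeks and 60 min, and 10 weeks and 60 min. Circles are Smad3+/+ and triangles Smad3SmKO, lines are group means and bars are the SD of the log values, and for all 6 genes every 18-week 60 min library lies above every 30 min library. The same order held for 0.415% of all genes tested in fibroblasts.

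The 4 libraries of 10 weeks, also digested for 60 min, are given side by side without a test because their batch differs from all others. In their fibroblasts Cxcl1 was 707 and 1935 CPM in Smad3+/+ and 1141 and 790 CPM in Smad3SmKO, each above the highest 30 min library of 18 weeks. Cxcl2 was 133, 131.4, 153 and 52.2 CPM in the same order, and Ccl2 was 233, 334, 259 and 153 CPM. The Cxcl2 values lay below every 60 min library of 18 weeks, and those of Ccl2 overlapped both 18-week groups. For Ccl7 the means were 320 CPM in Smad3+/+ and 256 CPM in Smad3SmKO, beside a highest 30 min value of 257 CPM at 18 weeks. Cxcl3 was 0.178, 1.69, 0 and 0 CPM, and the value of 1.69 CPM lay above the 30 min range.

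In VSMCs Cxcl1 was 79.3 and 69.9 CPM in Smad3+/+ and 63.8, 118 and 81.3 CPM in Smad3SmKO at 60 min, and 7.11, 19.3 and 39.6 CPM at 30 min (Log2FC 2.03 ± 0.25, adjusted p = 4.15e-04). Ccl7 was 43.3, 39.8, 18.5, 48.4 and 10.998 CPM at 60 min and 0, 1.09 and 2.83 CPM at 30 min (Log2FC 5.11 ± 0.57, adjusted p = 5.27e-04). Cxcl2 was 16.6, 118, 684, 371 and 74.2 CPM at 60 min and 0, 2.17 and 6.49 CPM at 30 min (Log2FC 6.58 ± 0.95, adjusted p = 0.00865). For these 3 ligands the digestion groups did not overlap. Cxcl12, whose groups overlapped, was 142, 145, 226, 123 and 216 CPM at 60 min and 42.7, 86.6 and 130 CPM at 30 min (Log2FC 1.00 ± 0.21, adjusted p = 0.0156). The 6 leukocyte markers moved the same way in the VSMC sums, with a median of 21.8 CPM (1.63–68.0) at 60 min and 2.83 CPM (0–4.24) at 30 min, and macrophage markers were 66.3 CPM (0.555–120) and 5.65 CPM (0–19.3). The neutrophil markers were at 11.5 CPM (10.9–255) and 2.83 CPM (0–17.3), and the part of these cells in the VSMC values was not tested. In VSMCs of no other class 3 of 18 members were called, and 298 of 11795 genes in all. Ccl7 was 4.54 (adjusted p = 0.0156), Cxcl2 4.37 ± 0.80 (0.0212) and Cxcl12 0.95 (0.0234) on the log2 scale, and Cxcl1 was 1.64 ± 0.45 with an adjusted p of 0.0931. At 10 weeks, also 60 min, mean VSMC Cxcl1 was 22.7 CPM in Smad3+/+ and 14.7 CPM in Smad3SmKO. These means lay within the 30 min range of 18 weeks. Those of Ccl7 (11.9 and 4.88 CPM) and Cxcl2 (22.1 and 26.8 CPM) lay above the 30 min range of each ligand. For Ccl7 the lower Smad3SmKO library of 10 weeks, at 2.01 CPM, lay within that range.

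In the endothelial gate Cxcl1 was 1674, 2284, 860, 2820 and 664 CPM at 60 min and 95.6, 173 and 324 CPM at 30 min (Log2FC 3.19 ± 0.43, adjusted p = 0.00454). No library of 30 min reached the 60 min range, and in cells of a single class the Log2FC was 3.46 (adjusted p = 0.00776). Cxcl2 was 384, 254, 633, 1227 and 531 CPM against 6.13, 42.8 and 273 CPM (Log2FC 3.34 ± 0.62, adjusted p = 0.0248), with 1 overlapping pair of libraries. Cxcl5 was 20.4, 8.09, 130.8, 7.46 and 62.0 CPM against 0.961, 2.78 and 4.48 CPM (Log2FC 3.70 ± 0.75, adjusted p = 0.0316). In cells of a single class Cxcl2 and Cxcl5 did not pass the threshold (Log2FC 3.53, adjusted p = 0.0541, and 2.60, adjusted p = 0.362). None of the 3 endothelial calls passed without Smad3+/+ 18 weeks replicates 4 and 5, the libraries whose GFP counts go against their label. Without the same pair, VSMCs had 3 members called, fibroblasts 4 and leukocytes 2. The fibroblast calls lost were Ccl2 (adjusted p = 0.104) and Cxcl5 (adjusted p = 0.0784).

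Leukocyte Cxcl1 was 3936 and 1766 CPM in Smad3+/+ and 2998, 4952 and 4677 CPM in Smad3SmKO at 60 min, against 186, 662 and 1193 CPM at 30 min (Log2FC 2.49 ± 0.44, adjusted p = 0.00935). Leukocyte Cxcl2 was 25993, 13751, 42377, 47385 and 26422 CPM at 60 min against 2920, 7706 and 13683 CPM at 30 min (Log2FC 1.99 ± 0.37, adjusted p = 0.0107). The groups did not overlap for either ligand, although for Cxcl2 the nearest libraries were close, at 13751 and 13683 CPM. The neutrophil gate held a median of 13.2% of leukocytes (3.37–48.9) at 30 min and 29.8% (10.1–48.3) at 60 min, ranges that overlapped, and the macrophage gate 67.0% (48.9–86.5) and 39.8% (23.1–80.2). Within the macrophage gate, Cxcl2 was still higher, at 9183 CPM (2855–10811, 7 libraries) at 30 min and 25671 CPM (18435–52082, 4 libraries) at 60 min, and Cxcl1 was 619 CPM (207–1236) and 4157 CPM (2254–5681). Within the neutrophil gate Cxcl2 was 26054 CPM (20343–28519) and 40727 CPM (31678–72711). None of these ranges within a gate overlapped between the digestion times at 18 weeks. At 10 weeks, also 60 min, Cxcl2 was 5623 and 8305 CPM in the neutrophil gate of 2 libraries (32 cells), below every 30 min library of 18 weeks, and 23891 CPM (19284–34286, 4 libraries) in the macrophage gate. Ccl2 in the macrophage gate had medians of 1560 and 2999 CPM, and Ccl7 of 779 and 3088 CPM, while neither ligand was called in the leukocyte sums.

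By role, the 4 neutrophil-attracting CXC ligands had a median Log2FC for digestion of 3.94 in fibroblasts (4 of 4 called higher), 3.52 in endothelium (3 of 4), 5.66 in VSMCs (2 of 4) and 2.42 in leukocytes (2 of 4). The inflammatory CC ligands stood at 1.22 in fibroblasts (2 of 11 called), 1.92 in endothelium (0 of 9), 2.73 in VSMCs (1 of 9) and 0.14 in leukocytes (0 of 11). The homeostatic ligands stood at 0.46 (0 of 8), 0.11 (0 of 8), 0.69 (1 of 7) and 0.77 (0 of 8), and no interferon-induced CXC ligand was called in any class. The median over all genes was between −0.04 and 0.02. Of all genes, 1.04% were called higher in fibroblasts, 2.08% in endothelium, 1.67% in VSMCs and 4.45% in leukocytes. Of 20 NF-kB genes chosen as companions of the ligands, 8 were called higher in fibroblasts (median 1.02), 8 in endothelium (0.87), 9 in leukocytes (0.84) and 3 in VSMCs (0.10). Among them Il6, a cytokine, was higher in all 4 classes, with Log2FC 3.11 ± 0.36 in fibroblasts, 3.24 ± 0.81 in VSMCs, 2.92 ± 0.23 in endothelium and 3.61 ± 0.45 in leukocytes. Of 15 genes of the immediate-early and heat-shock response to dissociation, 2 were called higher in fibroblasts (median 0.57) and 2 in endothelium (0.67). In VSMCs (median −0.36) and leukocytes (−0.086) none was called higher and 1 was called lower in each.

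The study compared the genotypes to follow transcriptional changes after loss of Smad3 in VSMCs. By edgeR with batch as a term, no member was called between genotypes in any class, whether at 10 weeks, at 18 weeks or as a change of the genotype effect from one time to the other. Of all genes 0% were called in fibroblasts, endothelium and leukocytes in each of these comparisons, while in VSMCs 0% were called at 10 weeks, 0.0398% at 18 weeks and 0.00796% for the change of effect. The members tested were 26 in VSMCs, 38 in fibroblasts, 32 in endothelium and 38 in leukocytes. At an unadjusted p under 0.05 there were 4 members in VSMCs (15.4%, against 1.85% of all genes), 1 in fibroblasts (2.63% against 0.841%), none in endothelium (3.55% of all genes) and 2 in leukocytes (5.26% against 2.98%) at 10 weeks. At 18 weeks there were 2 in VSMCs (7.69% against 4.63%), 1 in fibroblasts (2.63% against 2.53%), 1 in endothelium (3.13% against 2.89%) and none in leukocytes (1.41% of all genes). By DESeq2, Cxcl14 in endothelium and Ccr7 in leukocytes were called at 10 weeks and for the change of effect, and none in the other comparisons. Leaving out Smad3+/+ 18 weeks replicates 4 and 5 again gave no call at 18 weeks.

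In fibroblasts at 18 weeks the Log2FC of the libraries labelled Smad3SmKO against Smad3+/+ was −0.19 ± 0.37 for Cxcl1, 0.96 ± 0.48 for Cxcl2, 0.36 ± 0.34 for Ccl2, 0.39 ± 0.33 for Ccl7 and −0.08 ± 0.27 for Cxcl12. In leukocytes at 18 weeks it was 0.24 ± 0.40 for Cxcl1, 0.64 ± 0.34 for Cxcl2, 0.52 ± 0.33 for Ccl2 and 0.59 ± 0.36 for Ccl7. The Cxcl2 value was positive in 3 of 4 batches of 18 weeks in fibroblasts, 3 of 4 in leukocytes and 4 of 4 in the endothelial gate with all its cells, where it was 1.87 ± 0.88, and none passed the threshold.

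In VSMCs at 10 weeks Cxcl12 was 157 and 121 CPM in Smad3SmKO and 83.9 and 80.3 CPM in Smad3+/+ libraries (Log2FC 0.78 ± 0.26, unadjusted p = 0.00823, adjusted p = 1). At 18 weeks it was 42.7, 123 and 226 CPM (lowest, median and highest of 7) in Smad3SmKO and 73.6, 110, 69.2, 142 and 145 CPM in Smad3+/+, so the groups overlapped. The change between times was −0.80 ± 0.33 (unadjusted p = 0.0254). For this change 4 VSMC members were under 0.05 (15.4%, against 2.35% of all genes). The others were Cxcl10 (2.86 ± 1.03), Cxcl5 (7.22 ± 2.84) and Ccl7 (1.38 ± 0.58). At 18 weeks Cxcl5 had 62 UMIs in Smad3SmKO and 0 in Smad3+/+ VSMCs. Ccl7 in VSMCs at 10 weeks was 7.75 and 2.01 CPM in Smad3SmKO and 14.4 and 9.38 CPM in Smad3+/+ (−1.15 ± 0.41, unadjusted p = 0.0126). The other VSMC members with an unadjusted p under 0.05 at 10 weeks were Ccl17, with 17 UMIs in Smad3SmKO and 1 in Smad3+/+ libraries, and Ccl25 (0.74 ± 0.34). At 18 weeks the VSMC members under 0.05 were Ccl4 (3.49 ± 1.39) and Cxcl14 (3.15 ± 1.37). Both turned negative without Smad3SmKO replicate 6, at −0.54 and −0.46.

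In fibroblasts at 18 weeks Cxcl13 was 0, 1.67 and 24.9 CPM in Smad3SmKO and 0.0586 to 2.18 CPM in Smad3+/+, and was higher in Smad3SmKO in 4 of 4 batches (2.53 ± 1.01, unadjusted p = 0.0291). In endothelium at 18 weeks Ccl12 was 0, 1.39 and 86.0 CPM against 0.708 to 4.65 CPM (3.48 ± 1.12, unadjusted p = 0.0122), while endothelial cells of a single class held 13 Ccl12 UMIs in all. In leukocytes at 10 weeks Ackr3 was 4.03 and 19.1 CPM in Smad3SmKO and 53.0 and 54.6 CPM in Smad3+/+ (−2.64 ± 0.70, unadjusted p = 0.00173). In leukocytes of no other class the Ackr3 value was 0.044. None of these passed the adjustment over all genes.

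**Figure D4:**
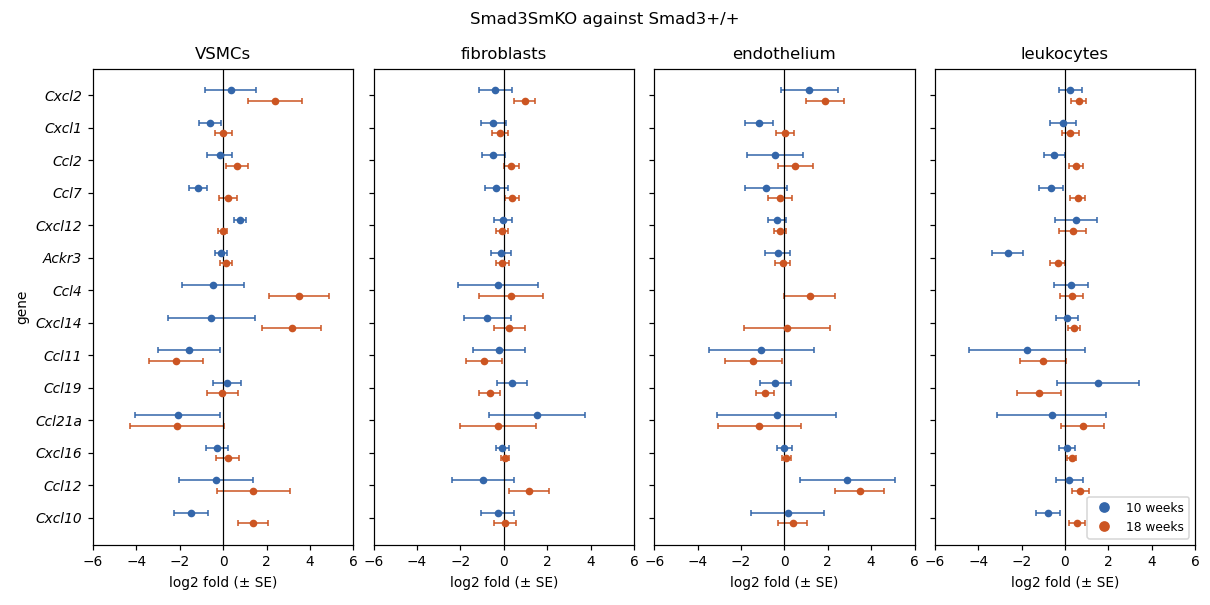
Log2 fold change ± SE of libraries labelled Smad3SmKO against Smad3+/+ for the 14 most abundant members in the 4 classes at 10 and 18 weeks. The values of endothelium Ccl4 and Cxcl14 at 10 weeks have an SE of 3 or more and are not drawn, and no value shown passed an adjusted p under 0.05.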

How the data were processed

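Single-cell libraries (10x Genomics Chromium 3′ v3) were sequenced by the authors and processed with Cell Ranger against mm10 with a GFP sequence added (version 6 in the submitters' notes, 4.0.0 in the matrix headers). The deposited matrices hold raw UMI counts per gene and cell barcode, and nothing in them was normalised or corrected for free RNA. Cells with 600 to 6000 genes, 2000 to 50000 UMIs and at most 25% mitochondrial UMIs were retained, the limits of the study. No doublet caller was run, and counts from cells of a single class stand in for one.

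UMIs were summed per library and class (at least 10 cells), given as CPM, and tested with edgeR 4.0.16 (quasi-likelihood, TMM, robust, genes with at least 50 UMIs in total, Benjamini-Hochberg adjustment over all genes). The genotype fit had the 6 batches as terms, the digestion fit had genotype, and the cell type fit had the library as a block. SEs are the Log2FC over the square root of F. Leukocyte gates needed 20 UMIs for neutrophils, 3 for macrophages and 2 for T and B cells. Sensitivity runs used DESeq2 1.42.0 and limma 3.58.1 in R 4.3.3, and intervals and figures used Python 3.11.15 with scipy 1.17.1 and matplotlib 3.10.9. The fits were tested on simulated counts.

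The members and lists were chosen with earlier results of these data known. Members named are those past the adjusted threshold and, beyond them, some of those with an unadjusted p under 0.05, with the 5 most abundant of each class. The values of 1 receptor are not reported here, although it is included in the counts. Library depth was 12180168 to 48813151 UMIs in retained cells, and the smallest sums held 13 leukocytes (Smad3SmKO 18 weeks replicate 7) and 22 VSMCs (Smad3SmKO 18 weeks replicate 4).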

Additional observations from a re-analysis of the deposited data

Results flagged for a closer look

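Among 30 groups of libraries examined for a value far from the others (Dixon's ratio, which chance passes in about 1 of 20 groups), 4 held one. Cxcl3 in fibroblasts at 60 min and 18 weeks was 61.4 CPM in Smad3SmKO replicate 5, where the next library held 11.8 CPM. Cxcl3 in fibroblasts at 30 min was 0.251 CPM in Smad3SmKO replicate 2 against 0.0583 CPM in the next, a level of 9 UMIs. Cxcl5 in fibroblasts at 30 min was 20.9 CPM in Smad3SmKO replicate 1 against 9.06 CPM in the next. Cxcl2 in the endothelial gate at 30 min was 273 CPM in Smad3SmKO replicate 3 against 65.9 CPM in the next.

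The 1642 retained cells that passed no class gate (3.23%) entered no comparison but held a large part of the UMIs of 3 members. They held 8985 of the 39243 Ccl21a UMIs (22.9%), at a pooled 1019 CPM, beside 92.8 CPM of Lyve1, 51.1 CPM of Mmrn1 and 10.9 CPM of Prox1, all lymphatic endothelium markers. They also held 124 of the 357 Cxcr6 UMIs (34.7%) and 35 of the 233 Cxcr3 UMIs (15.0%), beside 32.3 CPM of the T cell gene Cd3g.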

How the results depend on the processing

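No paired analysis was possible because the labels give no replicate numbers, those used here following accession order, and batch, which the labels do give, was a term of the genotype fit instead. For counts of members called, 126 of 148 alternatives and 236 of 240 left-out libraries stayed within 1.5 times of the reported count. Without a low-count filter the genotype calls went from 0 to 3 in VSMCs, 4 in endothelium and 6 in leukocytes at 10 weeks. They went to 6, 9 and 1 at 18 weeks and to 3, 1 and 5 for the difference. The digestion calls without that filter went from 4 to 18 in VSMCs and from 3 to 1 in endothelium. DESeq2 gave digestion calls of 10 in fibroblasts, 5 in endothelium and 5 in leukocytes, and genotype calls of 1 in endothelium and 1 in leukocytes at 10 weeks and for the difference. limma-voom gave 4 digestion calls in leukocytes, and the 60 min libraries alone gave 1 genotype call in leukocytes at 18 weeks (Ccl21a). Digestion calls in endothelium were 0 without Smad3+/+ 18 weeks replicates 4 and 5, and 5 without batch 5, both chosen after seeing the data. The cause of these shifts was not tested.

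With single libraries left out, digestion calls were 4 to 8 in VSMCs (8 without Smad3SmKO 18 weeks replicate 7), 5 to 7 in fibroblasts, 1 to 4 in endothelium (1 without Smad3SmKO replicate 1 or Smad3+/+ replicate 4) and 2 to 4 in leukocytes (4 without Smad3+/+ replicate 1). Genotype calls were 0 throughout, and cell type calls were 39 to 43 in VSMCs, 26 to 29 in fibroblasts, 24 to 30 in endothelium and 38 to 42 in leukocytes. Cxcl1 and Cxcl2 in fibroblasts and leukocytes, and Ccl7 in fibroblasts and VSMCs, passed in all 20 alternatives for digestion. Cxcl12 in VSMCs passed in 18 of 20 and Cxcl5 in 15 of 20 in fibroblasts and 9 of 20 in endothelium.

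Log2FC values that changed sign were not among the calls. For genotype in VSMCs at 18 weeks, Ccl4 went from 3.49 to −0.54 and Cxcl14 from 3.15 to −0.46, both without Smad3+/+ replicates 4 and 5 and without Smad3SmKO replicate 6, and with other single libraries left out they reached 6.76 and 3.67. Ccl7 for the difference in VSMCs went from 1.38 to −0.10 without Smad3SmKO 18 weeks replicate 6 (highest 2.71), and Cxcl13 in fibroblasts from 8.03 to −0.89 without Smad3+/+ 10 weeks replicate 2 (highest 11.5). In leukocytes of a single class Ackr3 went from −2.64 to 0.044 for genotype at 10 weeks and from 1.16 to −0.043 for digestion. Depth limits the smallest sums, of 22 VSMCs, 31 endothelial cells and 13 leukocytes.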

Other observations

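A list of 12 genes of the chemokine family, or linked to it, that the symbol rule leaves out was followed in the same classes. In VSMCs 2 of the 11 tested were called higher (30.8% of all genes) and 9 lower (41.3%). In fibroblasts 4 were higher (36.8% of all genes) and 4 lower (25.3%). Cd74, which binds Mif and also serves antigen presentation, averaged 19419 CPM in leukocytes against 240 CPM in fibroblasts and 120 CPM in VSMCs. Pf4, a CXC ligand, was 1309 CPM in leukocytes, Ccrl2, an atypical receptor of chemerin, was 494 CPM and Cx3cr1, the fractalkine receptor, was 198 CPM, each under 20 CPM in the other classes. Rarres2, which encodes chemerin, was instead 739 CPM in fibroblasts, 593 CPM in VSMCs and 82.2 CPM in leukocytes. Of these 12 genes, 3 were called higher at 60 min of digestion in leukocytes at 18 weeks, where 4.45% of all genes were. They were Ccrl2 (Log2FC 2.05 ± 0.24, adjusted p = 4.41e-04), Rarres2 (1.32 ± 0.34, adjusted p = 0.0388) and Mif (1.03 ± 0.24, adjusted p = 0.0216). Cx3cr1 was called lower there (−1.31 ± 0.21, adjusted p = 0.00292), and none was called in the other classes by edgeR.

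The fibroblast UMIs of Cxcl2 came from few cells. In the median library 50% of them lay in 0.160% of fibroblasts at 30 min and in 1.13% at 60 min, whereas for Cxcl1 the shares were 4.34% and 6.81%. The Has1 and Spon2 gate held a median of 14.2% of fibroblasts (9.84–19.6) at 30 min, 31.5% (7.14–53.0) at 60 min and 8.74% at 10 weeks, and its part in the digestion differences of Cxcl1, Ccl2 and Ccl7 was not tested.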
